A study of Homo sapiens with 30 samples.

Results

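The midbrain medium set comprised 924 genomic regions that were open on day 4 in the midbrain medium whichever neural ectoderm the cells came from, and that were closed in the telencephalon and hindbrain media. They were chosen from 476170 merged regions on chromosomes 1 to 22, of which they made up 0.194%. A region counted as open in a population where the deposited peak list of that population had at least 1 peak in it. The set held the regions with a peak in both midbrain lists and no peak in the other 4 day 4 lists, so its state on day 4 is a description of how it was chosen and not a result. The 4 earlier lists, the peak widths and the position relative to genes were not used to choose it.

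Open chromatin was mapped with OmniATAC-seq, which marks accessible DNA by the cuts of the Tn5 transposase. The cells were wild-type H1, an established human embryonic stem cell line. There were 10 groups with 3 libraries each, 30 in all, and 50000 cells went into a library. Undifferentiated cells (hPSC) were taken on day 0. Definitive ectoderm (DE) was taken on day 1 after A8301, trametinib, C59 and LDN193189, inhibitors of activin and TGF-beta receptors, MEK, WNT secretion and BMP receptors. All later groups passed through DE. On day 2 anterior neural ectoderm (aNE) was taken after A8301, LDN193189 and C59, and posterior neural ectoderm (pNE) after A8301, LDN193189, TTNPB (50 nM), which activates retinoic acid receptors, FGF2, and XAV939, which inhibits tankyrase. Both day 2 media also held the survival compound thiazovivin. Each day 2 population was then kept in a telencephalon, midbrain or hindbrain medium until day 4, which gave aNE_T, aNE_M, aNE_H, pNE_T, pNE_M and pNE_H. What the midbrain medium held is not given in the sources used here. The plating density of the day 4 groups was 75000 per square cm for aNE-derived cells but 150000 for pNE-derived cells, so density and origin cannot be told apart. All groups came from 1 cell line.

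The midbrain forms between the forebrain and the hindbrain, and its fate is set largely by signals from the isthmus, the boundary with the hindbrain, which secretes WNT1 and FGF8. OTX2 marks the forebrain and midbrain side of that boundary and GBX2 the hindbrain side, while EN1, EN2, PAX2, PAX5 and PAX8 are switched on around it. WNT activity moves neural cells to more caudal fates, and retinoic acid specifies the hindbrain and spinal cord. Distal open regions in such cells are often enhancers, which act over distance and vary more between cell types than gene starts do.

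The files hold 1 list of peak positions for each group, with no value per library, no score and no read count. No replicate error can be given for any value, read depth is unknown, and a closed region cannot be told apart from an open one below the threshold of the peak caller. Differences below are differences between lists. Intervals are Wilson 95% intervals, which cover the sampling of regions and not the spread between libraries. On chromosomes 1 to 22 the day 4 lists had between 191380 peaks (aNE_T) and 302355 peaks (pNE_H), with 211358 in aNE_M and 209967 in pNE_M. The narrowest peak also differed, from 109 bp in pNE_H to 126 bp in aNE_H, and was 122 bp in aNE_M and 114 bp in pNE_M. Only the presence of a peak at a gene start can be read from these lists, not expression. Of the 7 midbrain markers with a sequence window around their start, 6 had a peak there in both midbrain lists, the exception being LMX1B. The same number had one in hPSC, so these starts do not identify the cells. All 6 neural markers had a peak at their start in every one of the 10 lists. Of all protein-coding starts, 78.7% had one in aNE_M and 77.8% in pNE_M. Markers of other cells had start peaks too. In both midbrain lists 2 of 3 pluripotency markers (DPPA4 and DNMT3B, not NANOG) and all 4 mesoderm and endoderm markers had one. So did FOXD3 and TFAP2A of the neural crest and GATA3 of the surface ectoderm. EMX2 and LHX2 of the telencephalon and GBX2 and EGR2 of the hindbrain had one as well. The midbrain lists differed at some markers. HOXB1 of the hindbrain and TP63 of the surface ectoderm had a start peak in pNE_M but not in aNE_M, and KRT8 the reverse. TFAP2B, a neural crest factor, had no start peak in any list.

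At 5 annotated starts a region of the set reached into the 250 bases before the start. Sequence was at hand for these windows alone, from RefSeq (GRCh38.p14, the build of the files), and 4 are shown 5′ to 3′ on the strand of the gene because there both midbrain peaks cover bases of the window. Capitals mark the bases inside the peaks of both midbrain lists, and the last base is the one before the start.
FOXI1: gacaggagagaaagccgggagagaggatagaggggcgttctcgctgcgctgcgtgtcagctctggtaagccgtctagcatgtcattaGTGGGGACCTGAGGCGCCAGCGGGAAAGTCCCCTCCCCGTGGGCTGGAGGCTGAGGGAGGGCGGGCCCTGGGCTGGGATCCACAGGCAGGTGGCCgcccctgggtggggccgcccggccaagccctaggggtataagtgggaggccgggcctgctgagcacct
MALAT1: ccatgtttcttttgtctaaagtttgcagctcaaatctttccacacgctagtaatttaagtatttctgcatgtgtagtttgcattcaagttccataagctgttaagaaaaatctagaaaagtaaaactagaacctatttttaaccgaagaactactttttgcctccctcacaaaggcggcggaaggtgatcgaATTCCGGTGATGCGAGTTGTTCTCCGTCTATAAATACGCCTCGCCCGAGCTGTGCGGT
LOC124906290: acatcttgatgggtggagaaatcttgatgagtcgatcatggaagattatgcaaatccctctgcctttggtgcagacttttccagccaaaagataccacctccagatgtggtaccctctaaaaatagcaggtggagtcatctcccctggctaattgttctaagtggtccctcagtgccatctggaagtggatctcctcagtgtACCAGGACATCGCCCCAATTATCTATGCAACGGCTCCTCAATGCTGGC
ZNF385B: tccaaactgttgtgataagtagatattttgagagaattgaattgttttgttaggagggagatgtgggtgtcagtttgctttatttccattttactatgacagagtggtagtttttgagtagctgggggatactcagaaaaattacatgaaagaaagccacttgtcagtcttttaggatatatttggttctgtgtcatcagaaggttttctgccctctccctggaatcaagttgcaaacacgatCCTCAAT

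FOXI1, a forkhead factor of the otic placode and of ion-transporting epithelia, had the longest shared stretch. The region spans chr5:170105715-170105909 across the gene start, with a peak of 176 bp in aNE_M, 114 bp in pNE_M and none in the other 8 lists. Of the 250 bases shown (chr5:170105647-170105896, plus strand), 95 lay in both midbrain peaks, and 68.4% of the window was G or C, against a median of 58.4% over 33725 such windows. MALAT1, an abundant nuclear noncoding RNA, had a region at chr11:65498953-65499151, also across the start, with 58 shared bases in chr11:65498795-65499044 (plus strand). Its peaks were 155 bp in aNE_M and 114 bp in pNE_M, and both day 2 lists also had one. LOC124906290 had a region at chr3:139281551-139281843 with peaks of 235 bp in aNE_M and 289 bp in pNE_M and no peak elsewhere, with 48 shared bases in chr3:139281353-139281602 (plus strand). ZNF385B, a zinc finger gene, had only 7 shared bases in chr2:179562589-179562838 (minus strand), since the peaks of its region, 146 bp in aNE_M and 151 bp in pNE_M, lay mostly past the start. pNE also had a peak there. The midbrain peaks at these starts were between 114 and 289 bp wide.

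The 250-base windows were searched on both strands for 10 short motifs: TAATCC (OTX), CTTTGA (TCF and LEF), ACAAT (SOX), TAATTA (homeodomain), ATGCAAAT (POU octamer), AGGTCA (nuclear receptors), CAGCTG (E box), CAGCAGG (ZIC), TGANTCA (AP-1) and TGACAG (MEIS and TGIF). None lay wholly inside the capitals of the 4 windows. Outside them FOXI1 had 1 CAGCAGG (8.50% of all 33725 windows hold one), ZNF385B had ACAAT (24.7%) and TGACAG (13.1%), and LOC124906290 had ACAAT and ATGCAAAT (1.61%). MALAT1 had none. Other shares were 5.62% for TAATCC, 11.2% for CTTTGA, 4.40% for TAATTA, 12.1% for AGGTCA, 14.1% for CAGCTG and 6.54% for TGANTCA. None of the motifs contains another. A match is a run of letters and not a shown binding site.

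Sharing the midbrain medium left few regions to the 2 midbrain lists alone. Each of the 3 lists of anterior origin was paired with each of the 3 lists of posterior origin, and the regions open in both lists of a pair and in none of the other 4 day 4 lists were counted. The pair aNE_M and pNE_M had 924, which was 0.465% of the open regions of aNE_M and 0.474% of those of pNE_M. The telencephalon pair had 3036 and the hindbrain pair 5404. Of the 6 mixed pairs 4 had more regions than the midbrain pair: aNE_T with pNE_M had 997, aNE_H with pNE_M had 1431, aNE_T with pNE_H had 3545 and aNE_M with pNE_H had 4988. The pair aNE_M with pNE_T had 917 and aNE_H with pNE_T had 601. The midbrain set was 0.966 times the mean of the mixed sets of midbrain and telencephalon lists. pNE_H was the longest list. With every list reduced to its widest 162041 peaks, the hindbrain set was 2.35 times as large as the midbrain set instead of 5.85 times, and the set of aNE_M with pNE_H 1.46 times instead of 5.40 times. That setting changes the length of every list and removes narrow peaks together, and the cause of the move was not tested.

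**Figure D1:**
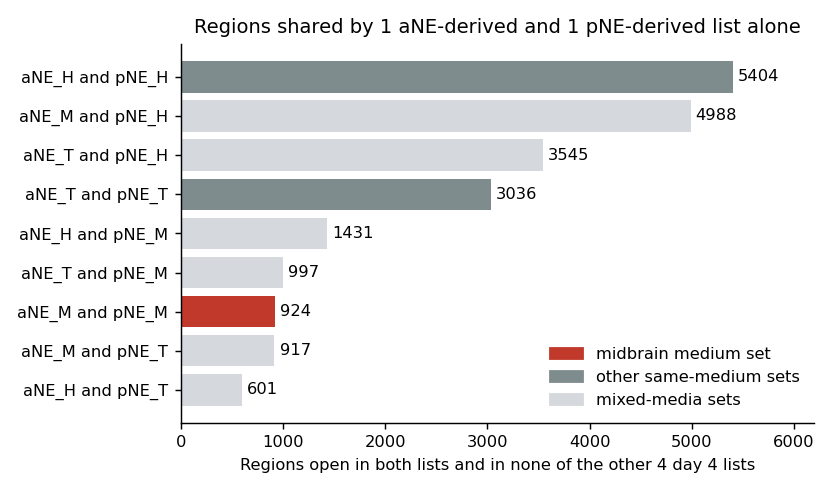
Number of regions (x axis) open in 1 aNE-derived and 1 pNE-derived day 4 list and in none of the other 4 day 4 lists, for the 9 pairs of lists (y axis). The midbrain pair, with 924 regions, lies among the mixed pairs of midbrain and telencephalon lists (917 and 997) and below both other same-medium pairs (3036 and 5404).

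The 2 midbrain lists had far more in common than this set. They shared 136626 open regions, 68.7% of those in aNE_M and 70.0% of those in pNE_M. Of the shared regions 96805 (70.9%) were open in all 4 other day 4 lists, 21807 in 3 of them, 12736 in 2 and 4354 in 1. The 924 regions of the set were the 0.676% open in none. Among the 4354 regions just outside the rule, with a peak in exactly 1 other list, that list was pNE_H in 2137, aNE_H in 1345, aNE_T in 653 and pNE_T in 219.

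What both midbrain lists had and both telencephalon lists lacked was almost always open in a hindbrain list. There were 11487 such regions, and 10563 of them (92.0%, interval 91.4% to 92.4%) were open in at least 1 hindbrain list, 7081 in both. The 924 regions of the set are the rest, 8.04%. In the other direction, 2572 regions were open in both midbrain lists and in neither hindbrain list, and 1648 of these (64.1%, 62.2% to 65.9%) were open in a telencephalon list. The same 924 regions were 35.9% of them. By these counts the regions common to the midbrain lists sided more often with the hindbrain than with the telencephalon medium. Leaving both hindbrain lists out of the rule turned the order of the sets. The 11487 regions were then 2.75 times the mean of the mixed midbrain and telencephalon sets, and the telencephalon set was 0.569 times as large. A longer pNE_H list adds to the first count and takes from the second, and its part in this difference was not tested.

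Within 1 origin, the regions open in the midbrain medium alone were also followed into the other origin. Of the 22216 regions open in aNE_M and in neither aNE_T nor aNE_H, 23.4% (22.9% to 24.0%) were open in pNE_M, 21.4% in pNE_T and 48.4% (47.7% to 49.0%) in pNE_H. The share in pNE_M was thus a little above that in pNE_T, a list of nearly the same length. Of the 26073 regions open in pNE_M and in neither pNE_T nor pNE_H, 15.1% (14.7% to 15.5%) were open in aNE_M, 15.4% (14.9% to 15.8%) in aNE_H, and 2880 of these regions were open in aNE_T. Most of the latter, 74.8%, were open in no aNE-derived day 4 list.

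The peaks that make up the set were narrow. In aNE_M their width had a median of 159 bp with quartiles of 131 and 203 bp, against a median of 295 bp over all its open regions. In pNE_M the median was 163.5 bp with quartiles of 128 and 219.5 bp, against 277 bp. The lower quartiles lay close to the narrowest peak of each list. Both midbrain peaks were at least 200 bp wide in 92 of the 924 regions (9.96%), but in 69.5% of all regions open in both lists. Width followed the number of other day 4 lists in which a region was open. The aNE_M median was 159, 174, 207, 249 and 492 bp in regions open in 0, 1, 2, 3 and 4 other lists, and the pNE_M median 163.5, 180, 203, 232 and 421 bp. Peaks in the telencephalon set (medians of 189 bp in aNE_T and 193 bp in pNE_T) and the hindbrain set (172 bp in aNE_H and 186 bp in pNE_H) were a little wider. Peak width is the only graded value in the lists, and how it relates to the calling threshold was not tested.

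**Figure D2:**
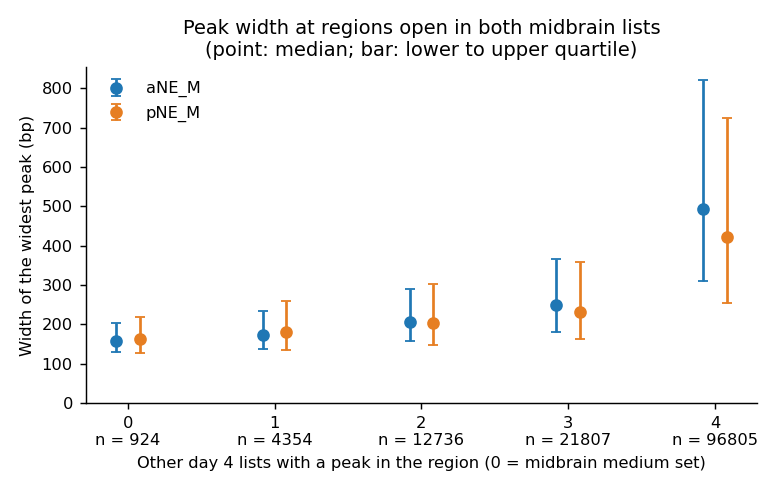
Width in bp of the widest peak (y axis) in aNE_M and pNE_M, over the 136626 regions open in both, grouped by how many of the other 4 day 4 lists had a peak there (x axis). Points are medians and bars run from the lower to the upper quartile. The midbrain medium set, at 0 other lists, had the narrowest peaks, with medians of 159 and 163.5 bp, against 492 and 421 bp in regions open in all 4.

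At each region the peaks of the 2 origins mostly lay on the same bases. They overlapped each other in 913 of 924 regions, with a median overlap of 93.7% of the narrower peak and a median of 38 bp between their midpoints. In the other 11 they were joined only through a peak of an earlier list. Neither origin had the wider peak throughout: pNE_M did in 472 regions, aNE_M in 449, and the widths were equal in 3. Width in one origin said little about width in the other. Spearman's rho across the 924 regions was 0.083, against 0.71 across all 136626 regions open in both lists, which span a larger range of widths. These are descriptions across regions of the same pair of lists. In 46 regions (4.98%) a peak of an excluded day 4 list began or ended within 100 bp, and in 405 (43.8%, 40.7% to 47.0%) within 1 kb. The latter share was 32.3% (30.6% to 34.0%) in the telencephalon set and 33.5% (32.3% to 34.8%) in the hindbrain set.

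No earlier list had a peak in 510 regions of the set (55.2%, 52.0% to 58.4%), against 35.0% of all merged regions and 4.69% of the regions open in both midbrain lists. With lists of one size the share fell to 48.9%. DE had 225 of the regions open (24.4%, 21.7% to 27.2%) where its share of all merged regions was 46.9%. For hPSC it was 198 regions (21.4%, 18.9% to 24.2%) against 40.5%. On day 2, pNE had 192 open (20.8%, 18.3% to 23.5%) against 39.2%, and aNE had 90 (9.74%, 7.99% to 11.8%) against 32.0%. All 4 earlier lists were thus below their share of all regions. Among regions open in both midbrain lists, these shares rose with the number of other day 4 lists open, as width did. For hPSC they were 21.4%, 28.2%, 37.2%, 53.1% and 87.0% at 0, 1, 2, 3 and 4 other lists. For pNE they were 20.8%, 40.5%, 66.0%, 83.4% and 98.4%. Low early shares are thus not particular to the midbrain medium. The order of the 4 earlier lists did not hold. In the set aNE, the shortest list, had the lowest share, but with lists of one size it had 19.7% and DE was the lowest with 17.3%.

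Set beside the other media in the deposited lists, the midbrain set was nearer to the hindbrain set in DE and aNE. In pNE it was nearer to the telencephalon set. With lists of one size the midbrain set had 17.3% open in DE, 19.7% in aNE and 27.4% in pNE. The shares of the other sets were not recomputed at one size, so whether these placings depend on list length was not tested. In the telencephalon set 56.0% of regions were open in DE (54.3% to 57.8%), 39.3% in aNE and 21.7% in pNE (20.3% to 23.2%), and 32.9% were open in no earlier list. In the hindbrain set 23.6% were open in DE (22.5% to 24.7%), 7.81% in aNE (7.12% to 8.56%) and 27.6% in pNE (26.4% to 28.8%), and 51.4% in none. The aNE share of the midbrain set was thus far below that of the telencephalon set, while its pNE share of 20.8% was close to that of the telencephalon set and below that of the hindbrain set. Mixed sets with 1 midbrain list gave values on both sides. The share open in no earlier list was 60.8% in the set of aNE_H with pNE_M, 49.5% in that of aNE_M with pNE_H, 47.7% in that of aNE_M with pNE_T and 37.0% in that of aNE_T with pNE_M.

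**Figure D3:**
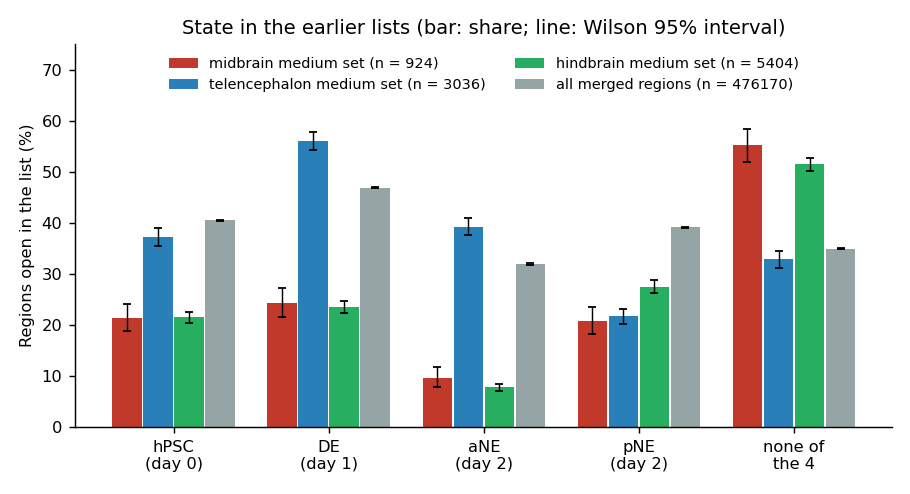
Share of regions in percent (y axis) open in each earlier list, or in none of them (x axis), for the 3 same-medium sets and all merged regions. Lines are Wilson 95% intervals over regions. The midbrain and hindbrain sets were open in DE in 24.4% and 23.6% of cases and in aNE in 9.74% and 7.81%, against 56.0% and 39.3% in the telencephalon set.

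Of the 924 regions, 159 (17.2%, 14.9% to 19.8%) were open in pNE but closed in aNE, 57 (6.17%, 4.79% to 7.91%) in aNE and not in pNE, and 33 (3.57%) in both. Over all merged regions these shares were 12.7%, 5.55% and 26.4%, so more regions were open in pNE alone than in aNE alone in the set and in all regions alike. The pNE list was also the longer one, with 199638 peaks against 162041. The remaining 675 regions (73.1%, against 55.3% of all regions) were closed in both day 2 lists. These included 165 (17.9%, against 20.3%) that had been open in hPSC or DE, so that a peak was called early, was missing on day 2 and was called again in the midbrain medium. Of the 16 combinations of earlier lists, pNE alone was the commonest after none, with 85 regions, followed by DE alone with 65, hPSC alone with 52 and hPSC with DE with 48. Only 16 regions (1.73%, against 21.7% of all regions) were open in all 4 earlier lists and closed in the other 4 day 4 lists. Their lesser midbrain peak, the narrower of the 2, had a median of 155 bp, against 135 bp in the 510 regions with no earlier peak. In pNE the peaks at the set had a median width of 161 bp and in aNE 167 bp.

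Few of the regions lay near a gene start, in this set as in those of the other media. A gene start from the table of start windows, which held none for chromosome 8, lay within 1 kb of 21 regions (2.27%, 1.49% to 3.45%). The share was 2.96% in the telencephalon set, 2.79% in the hindbrain set, 5.22% of all merged regions and 12.1% of regions open in both midbrain lists. Either end of an annotated gene lay within 1 kb of 73 regions (7.90%, 6.33% to 9.82%), against 11.2% of all merged regions. The telencephalon and hindbrain sets had 8.37% and 7.72%. In 500 bp windows the share of the midbrain set was 12.0%, and that of all regions was not recomputed. Inside protein-coding genes lay 467 regions (50.5%, against 51.0%), and 447 (48.4%, against 46.6%) were more than 50 kb from either end of one. Exon positions were not used here. The regions were spread over all 22 chromosomes, with from 0.0628% of the merged regions on chromosome 19 (6 of 9560) to 0.249% on chromosome 12 (57 of 22932). They seldom stood in groups. Another region of the set lay within 100 kb for 67 regions (7.25%), in 33 groups, of which the largest had 3 regions, beside UBE2E3, a ubiquitin-conjugating enzyme, on chromosome 2 from 180943820 to 180966807.

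Counting starts up to 1 kb away, 14 protein-coding genes of those with a start window (15100 of 19122 symbols) had a region of the set. FOXI1 and ZNF385B are described above. OLIG3, a bHLH factor of dorsal neural tube progenitors, had a region 836 bp past its start (chr6:137493292-137493558) with peaks of 182 bp in aNE_M and 215 bp in pNE_M. It was open in all 4 earlier lists, at 240 bp in hPSC, 167 bp in DE, 181 bp in aNE and 137 bp in pNE, and an excluded list had a peak only 96 bp away. FOXB2, a forkhead gene, had a region 952 bp past its start (332 bp in aNE_M, 133 bp in pNE_M) that no earlier list had open. CDHR3, a cadherin, had one 608 bp before its start (232 and 204 bp in aNE_M and pNE_M), again with no earlier peak. ENPP6, a choline phosphodiesterase, had one 57 bp past its start with a much wider peak in aNE_M (378 bp) than in pNE_M (168 bp). At FBLN2, an extracellular matrix gene, the peak was 272 bp in aNE_M and 168 bp in pNE_M, and pNE was open as well. The lesser midbrain peak was at most 152 bp at ETV3, LENEP, SPON2, ATF7IP, GPR35, SPRED2 and ELOA.

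None of 25 midbrain and isthmus genes had a region of the set within 50 kb, among them OTX2, EN1, EN2, PAX2, PAX5, PAX8, WNT1, FGF8 and LMX1A, and 1061 of 19122 protein-coding genes (5.55%) did. At so low a share a count of 0 among 25 genes does not set the list apart. The median number per gene was 0 in the list and 0 over all protein-coding genes. The windows of the 25 genes held 1022 merged regions, of which 405 were open in both midbrain lists. Of these, 316 (78.0%) were open in all 4 other day 4 lists, 65 in 3 others, 20 in 2 and 4 in 1, against 70.9% open in all over the whole genome. The other gene lists described below were above the whole genome too, from 71.1% (FGF feedback) to 80.2% (telencephalon and eye). A high share is thus not particular to the midbrain genes. WNT1, the isthmus ligand, had 15 regions open in both midbrain lists and EN2, an engrailed homeodomain factor, had 12, and every one was open in all 6 day 4 lists. OTX2 had 12, of which 7 were open in all and 5 in all but 1. The absence of the list from the set changed with how an open region was counted. Where peaks had to cover 50% of a region, PAX3 and PAX5 had a region of the set. With the widest 50% of peaks DMBX1 had one, and with lists of one size LMX1A.

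**Figure D4:**
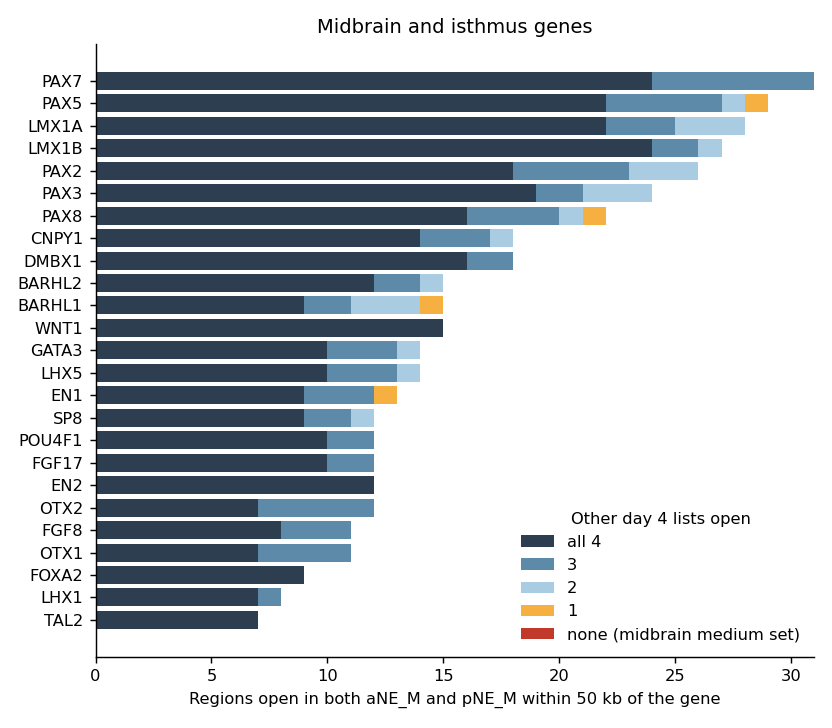
Number of regions open in both aNE_M and pNE_M within 50 kb of each of the 25 midbrain and isthmus genes (x axis; genes on the y axis), coloured by how many of the other 4 day 4 lists were open too. Most regions were open in all 4, as all 15 at WNT1 and all 12 at EN2, and none belonged to the midbrain medium set.

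With both hindbrain lists left out of the rule, 10 of the 25 genes had a region, a share close to the 39.8% of all protein-coding genes, and with both telencephalon lists left out 2 had one, against 14.8%. Inside PAX5, a paired box factor of the isthmus, the region chr9:36858746-36859706 had a peak of 928 bp in aNE_M, 552 bp in pNE_M, 802 bp in aNE_H and 423 bp in pNE and none in the other 6 lists. It missed the rule by the aNE_H peak alone. At EN1 the region chr2:118817616-118817759 had peaks of 138 bp in aNE_M, 138 bp in pNE_M and 132 bp in pNE_H and none elsewhere. At PAX3, a dorsal neural tube factor, chr2:222196140-222197044 had 795 bp in aNE_M, 529 bp in pNE_M, 206 bp in aNE_H, 358 bp in pNE_H and 411 bp in pNE. Inside LMX1A, a factor of midbrain dopaminergic progenitors and the roof plate, chr1:165218712-165219522 had a peak of 811 bp in pNE_M, 132 bp in aNE_M, 198 bp in aNE_H and 293 bp in pNE_H and no earlier peak. At PAX3 and PAX5 a further such region had narrower peaks in the midbrain lists, but not in aNE_H. At PAX3 chr2:222160973-222161291 had 175 bp in aNE_M, 249 bp in pNE_M, 223 bp in aNE_H, 296 bp in pNE_H and 255 bp in pNE. At PAX5 chr9:36831750-36832624 had 435 bp in aNE_M, 197 bp in pNE_M, 875 bp in aNE_H and 216 bp in pNE_H. There DE (174 bp) and pNE (395 bp) had a peak too. The regions of this paragraph were chosen after their values were seen.

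Of the 146 genes in all 8 lists on these chromosomes, 16 had a region of the set within 50 kb. Over all protein-coding genes the share was 5.55%. Neighbouring genes in a list can share a region, so the genes counted are not separate cases. The count fell to 4 genes with the widest 50% of peaks and to 10 with lists of one size, and it is small in each list. In the WNT list 3 of 26 genes had one. SFRP1, a secreted WNT antagonist, had the widest, chr8:41268759-41269229 inside the gene, with 231 bp in aNE_M and 379 bp in pNE_M and also 403 bp in hPSC, 338 bp in DE, 273 bp in aNE and 136 bp in pNE. TCF7L2, a nuclear effector of WNT signalling, had one inside the gene (chr10:113163816-113164012) with 146 and 197 bp in aNE_M and pNE_M and no earlier peak. At NOTUM, a WNT-inactivating hydrolase, the region lay 39554 bp away. AXIN2, LEF1 and SP5, often used as readouts of WNT activity, had none, which at a share of 5.55% does not set them apart. With both hindbrain lists left out of the rule AXIN2 had 5, LEF1 had 3 and SP5 had 1. Of all protein-coding genes 39.8% then had a region.

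In the hindbrain and spinal cord list, HOXC4 had one inside the annotated gene (chr12:54036937-54037181; 137 bp in aNE_M and 245 bp in pNE_M), and CDX1, a caudal homeobox factor, one 34671 bp away. In the FGF feedback list 3 of 14 genes had one: SPRED2 and FGFR2 inside the gene and ETV1 7538 bp from it. FGFR2, an FGF receptor, had 153 bp in aNE_M and 227 bp in pNE_M with no earlier peak (chr10:121525847-121526123). In the telencephalon and eye list LHX2 and FEZF1, 2 of 18, had one. LHX2, a forebrain LIM homeodomain factor, had 220 bp in aNE_M and 244 bp in pNE_M with no earlier peak, 23579 bp from the gene (chr9:123987946-123988189). RARG, a retinoic acid receptor, was the only 1 of 17 retinoic acid genes, with a region 1431 bp away. HES5, a Notch target, was the only 1 of 15 neural progenitor genes, and NEUROD4, a proneural factor, 1 of 11 neuronal genes. Windows differ in length and in number of regions between genes, so these counts do not rank the lists.

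By nearest gene end, 779 protein-coding genes had 1 region of the set, 59 had 2 and 9 had 3. The 9 genes with 3 were ADGRL2, CNTN4, FSTL5, GRID1, NRXN3, PAPPA, SOX5, ST3GAL1 and UBE2E3. They differ much in length: NRXN3, a neurexin, spans 1697919 bp, CNTN4, a contactin, 959094 bp, GRID1, a delta glutamate receptor, 767244 bp and ADGRL2, a latrophilin, 687801 bp. Their windows also held many regions of any kind, 363 at NRXN3, 175 at CNTN4, 169 at GRID1 and 193 at ADGRL2. The counts of 3 did not hold under stricter lists. With the widest 50% of peaks ADGRL2, CNTN4, GRID1, NRXN3, PAPPA, SOX5, ST3GAL1 and UBE2E3 had 0 and FSTL5 had 1. With lists of one size CNTN4, GRID1, PAPPA and UBE2E3 had 0. Where peaks had to cover 50% of a region ADGRL2 had 0. SOX5, a SoxD factor that acts in neural development, had all 3 regions inside the gene and none of them open in an earlier list. At GRID1, FSTL5 and ST3GAL1, a sialyltransferase, all 3 were also open in no earlier list. CNTN4 and UBE2E3 had 2 such regions and ADGRL2, NRXN3 and PAPPA had 1. Over the whole set 55.2% of regions were open in no earlier list, so these counts do not set the genes apart.

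The widest peaks of the set were then located, ranked by the lesser midbrain peak, together with the widest in each earlier state, 21 regions in all. The first, chr17:29560353-29560849, overlapped an end of ABHD15, a gene of fat cell metabolism, with 365 bp in aNE_M and 447 bp in pNE_M. It also had peaks of 137 bp in hPSC, 149 bp in DE and 197 bp in pNE, and none in aNE. Inside CEP164, a centriole gene, chr11:117381861-117383045 had 325 bp in aNE_M and 881 bp in pNE_M, but these overlapped by only 70 bp and an excluded list had a peak 58 bp away. The same caution holds inside FAM168A (chr11:73468387-73468970), where peaks of 325 and 323 bp overlapped by 64 bp. A region more than 50 kb from any protein-coding gene on chromosome 7, chr7:10551061-10551535, had 322 bp in aNE_M and 475 bp in pNE_M, no peak in the other 8 lists and its nearest excluded peak 23010 bp away. The nearest such gene was COXFA4, at 380408 bp. It was the most isolated of the 10 widest.

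Among the others of the 10 widest, the region inside SLC9A9, an endosomal sodium-proton exchanger (chr3:143439698-143440207), had 319 bp in aNE_M, 510 bp in pNE_M and 207 bp in pNE and no other peak. The region nearest to DKK2, a secreted modulator of WNT signalling (chr4:107130109-107130580), lay 93796 bp from it, with 300 and 472 bp in aNE_M and pNE_M and no earlier peak, and an excluded peak lay 174 bp away. Inside ST6GAL1, a sialyltransferase (chr3:186992779-186993173), the peaks were 299 bp in aNE_M, 290 bp in pNE_M, 235 bp in pNE and 113 bp in hPSC. In the region 11191 bp from FAM220A (chr7:6317827-6318220) they were 307 bp in aNE_M, 304 bp in pNE_M, 394 bp in hPSC, 230 bp in DE and 207 bp in pNE. The region inside RFLNA (chr12:124302969-124303416), with an excluded peak 62 bp away, and the one nearest to MARCHF11 (chr5:16229442-16229938) completed the 10. Of these 10, 3 had no earlier peak, 5 had one in pNE but lacked one in aNE, 1 had the reverse, and 1 was open in hPSC alone. Over the whole set 55.2% had no earlier peak, 17.2% were open in pNE but not in aNE, and 6.17% the reverse. With 10 regions a difference from these shares was not tested.

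The widest region open in all 4 earlier lists, chr16:83940228-83941182, lay 12058 bp from OSGIN1. It had its widest peaks early: 841 bp in hPSC and 875 bp in DE, then 283 bp in aNE and 451 bp in pNE, and 380 bp in aNE_M and 281 bp in pNE_M. The region nearest to RAD18, a DNA repair ligase, lay 23594 bp from it (chr3:8853098-8853481). Its peaks were 384 bp in hPSC, 247 bp in DE, 198 bp in aNE, 159 bp in pNE, 247 bp in aNE_M and 243 bp in pNE_M. The region nearest to STEAP4 (chr7:88490263-88491110) lay 183369 bp from it. There the DE peak of 848 bp was the widest, with 209 bp in aNE_M and 230 bp in pNE_M. In all 3 the widest peak was that of hPSC or DE. Among regions open in no earlier list, those near TSHR (chr14:81147277-81147637; 289 bp in aNE_M and 286 bp in pNE_M) and inside B3GAT2 (chr6:70894130-70894439; 286 and 281 bp) had nearly equal peaks in both origins. Among those open in aNE and not in pNE, the region nearest to SPATA31A6, 98332 bp from it (chr9:42288219-42288833), had 435 bp in aNE_M and 275 bp in pNE_M. That gene belongs to a family of near-identical copies, so peaks there are uncertain. The regions nearest to BDKRB2, RBM12B and ANO5 lay 12104, 2917 and 190669 bp from these genes. They had lesser midbrain peaks of 242, 226 and 200 bp.

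**Figure D5:**
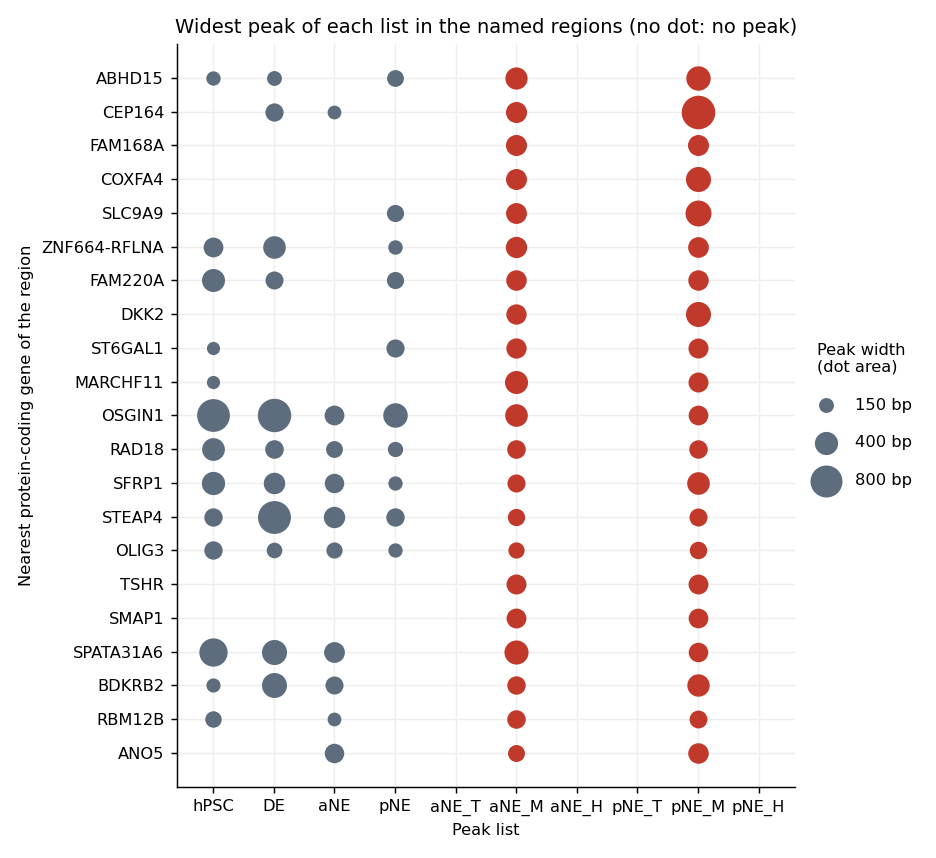
Width of the widest peak (dot area, in bp) of each of the 10 lists (x axis) in the 21 named regions of the midbrain medium set, given by their nearest protein-coding gene (y axis). No dot means no peak. Dots in the midbrain lists (red) stand at every region and the other 4 day 4 lists are empty by the choice of the set, while the earlier lists range from no peak (TSHR, SMAP1, COXFA4, DKK2, FAM168A) to peaks in all 4 (OSGIN1, RAD18, SFRP1, STEAP4, OLIG3).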

How the data were processed

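OmniATAC-seq libraries of 10 groups of 3 replicates were processed by the authors to 1 peak list per group. The submitters' processing notes name Bowtie2, MACS2, bedtools and the build hg38, with no versions or settings. How replicates were combined is not given in the sources used here. The deposited lists hold 3 columns (sequence name, start and end in bp). Depth per sample is unknown.

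Each list was assigned by the population name it carries. Peaks on chromosomes 1 to 22 of all lists were joined into regions by overlaps of 1 bp or more, and presence of a peak made a list open there. Width is that of the widest peak of a list in a region. Gene positions came from RefSeq (GRCh38.p14, 56752 genes used, 19122 protein-coding symbols), and 33725 start windows gave strand and sequence. Gene windows ran 50 kb beyond either end. Shares have Wilson intervals at 95%. With 1 list per group no test was made.

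The members, lists and rules were chosen with earlier results of these data known. Genes named were those of the 8 lists with a region within 50 kb (1 region of the hindbrain and spinal cord list is not reported here), the 10 with most regions by nearest end, and up to 15 with a region within 1 kb of the start. Regions named were the 10 with the largest lesser midbrain width and the 5 largest in each of 4 earlier states. The regions at PAX5, EN1, PAX3, LMX1A and other midbrain and isthmus genes that were open in a hindbrain list were named after their values were seen. Alternatives covered the overlap rule, stricter and equal-sized lists, 500 bp windows, merged gaps and gene assignment. Those that leave out lists of a medium or set a common narrowest width were chosen after seeing the data. The code was tested on 60000 simulated regions, where all 1810 simulated members were found. Each simulated peak held the midpoint of its region, and regions lay more than 1 kb apart. Closely spaced or non-overlapping peaks were therefore not tested. Chromosomes X and Y and scaffolds were not used in the set. Python 3.11.15, numpy 2.4.6, pandas 2.3.3, scipy 1.17.1, matplotlib 3.10.9 and bedtools 2.31.1 were used.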

Additional observations from a re-analysis of the deposited data

Results flagged for a closer look

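The set was chosen on chromosomes 1 to 22. By the same rule 24 of 16790 merged regions on chromosome X (0.143%) would have belonged to it. On alternate, fix and unplaced sequences 31 of 23891 (0.130%) would have. These regions lie outside the comparisons. On chromosomes 1 to 22 the share was 0.194%.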

How the results depend on the processing

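No paired analysis was possible because each group has 1 deposited list and no value per library; leaving out a replicate was not possible for the same reason. The set held 924 regions, with 159 bp (aNE_M) and 163.5 bp (pNE_M) as median widths and 16 listed genes within 50 kb, 0 of them midbrain genes. Where peaks had to cover 50% of a region, the DE share was 19.2%, the widths 196 and 208 bp and the midbrain genes 2. With the widest 50% of peaks there were 476 regions, 24.8% open in hPSC and 51.7% in no earlier list, widths of 332 and 332 bp, 4 listed genes and 1 midbrain gene. With lists of one size, shares were 17.3% (DE), 19.7% (aNE), 27.4% (pNE) and 48.9% (none), widths 220 and 225 bp, the hindbrain set 2.35 times and the set of aNE_M with pNE_H 1.46 times the midbrain set, with 10 listed genes and 1 midbrain gene. In 500 bp windows 12.0% lay within 1 kb of a gene end.

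The next alternatives were chosen after seeing the data. Without the hindbrain lists in the rule, 11487 regions had shares of 31.5% (hPSC), 33.9% (DE), 15.8% (aNE), 59.3% (pNE) and 26.2% (none), widths of 197 and 195 bp, 80 listed genes and 10 midbrain genes. The ratio to the mean mixed midbrain and telencephalon set went from 0.966 to 2.75, and that of the telencephalon set to the midbrain set from 3.29 to 0.569. Without the telencephalon lists, 2572 regions had shares of 31.8%, 46.1%, 35.0%, 35.9% and 34.8%, widths of 179 and 174 bp, a hindbrain ratio of 3.20, 28 listed genes and 2 midbrain genes. With a common narrowest width of 126 bp, widths were 171 and 182 bp. The causes were not tested. Of 224 results for single genes under alternatives, 132 stayed within 1.5 times and 92 moved. Unknown depth and the lack of scores limit every closed call.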
